A study of Mus musculus with 71 samples.

Results

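The TCF and LEF transcription factors, their partner β-catenin and the Tle corepressors were examined in chromatin loops of mouse synovial sarcoma (SyS). The 9 genes were *Lef1*, *Tcf7*, *Tcf7l1*, *Tcf7l2*, *Ctnnb1*, *Tle1*, *Tle2*, *Tle3* and *Tle4*, taken by name. A gene was given every loop with an anchor within 2 kb of any of its GENCODE transcription start sites (TSSs). By this rule 56 of the 24244 listed loops belonged to these genes. A loop was found for 8 of the 9 genes, against 45.8% of 21924 protein-coding genes. The 9 genes were chosen with earlier results of these data known. This and the like comparisons below are therefore no test of an excess.

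The loops came from H3K27ac HiChIP of 2 tumors. Both tumors carried *hSS2*, a human *SS18::SSX2* cDNA expressed from *Rosa26* once Cre has removed a floxed stop, and TATCre protein was injected into the hindlimb at day 8 of life. No control tissue was measured by HiChIP. TATCre acts on whichever limb cells take it up, and whole tumors were dissociated, so host cells such as vessels and leukocytes can contribute beside SyS cells. HiChIP ligates DNA ends that lie close together in the nucleus and captures those bearing H3K27ac, a mark of active promoters and enhancers. The number of paired-end tags supporting a loop is its count, and the sum of counts over the loops of a promoter is its loop score.

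LEF and TCF proteins bind DNA through an HMG box. Without Wnt signal they hold Tle proteins, the mammalian Groucho corepressors, at their targets. When β-catenin escapes the destruction complex it enters the nucleus, displaces Tle proteins and lets the same sites activate transcription. TLE1 is widely used as a diagnostic marker of human SyS.

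The sequences below are those on which the loop findings turn. They show the *Lef1* promoter, the middle of the anchor that carries its strongest loop, and the *Tle2* promoter. They also show the window at a RefSeq start of the one gene without a listed loop (*Tcf7*). The last are 2 places inside *Tcf7l2* that loop back to its first promoter. Promoters are from RefSeq on GRCm38.p6, the assembly named mm10, and run from 250 bases before to 50 bases after a start, on the strand of the gene. Anchor middles are 300 bases of the + strand. Capitals mark the TCF/LEF motif AACAAAG, its variant ATCAAAG, a further variant TACAAAG, or the variant TTCAAAG, on either strand.
Lef1 promoter, chr3:131110047-131110346 (+): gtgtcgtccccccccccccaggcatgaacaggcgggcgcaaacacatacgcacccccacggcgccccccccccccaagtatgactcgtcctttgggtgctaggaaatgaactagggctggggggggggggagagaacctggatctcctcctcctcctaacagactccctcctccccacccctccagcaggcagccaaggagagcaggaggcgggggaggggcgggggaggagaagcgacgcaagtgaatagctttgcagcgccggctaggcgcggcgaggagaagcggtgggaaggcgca
Lef1 upstream anchor, chr3:131106051-131106350 (+): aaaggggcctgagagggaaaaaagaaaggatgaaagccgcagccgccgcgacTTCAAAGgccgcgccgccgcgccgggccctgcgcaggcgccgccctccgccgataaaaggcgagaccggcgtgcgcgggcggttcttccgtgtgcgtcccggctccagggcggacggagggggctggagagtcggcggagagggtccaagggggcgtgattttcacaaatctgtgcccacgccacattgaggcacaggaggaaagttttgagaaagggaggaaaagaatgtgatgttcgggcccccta
Tle2 promoter, chr10:81575037-81575336 (+): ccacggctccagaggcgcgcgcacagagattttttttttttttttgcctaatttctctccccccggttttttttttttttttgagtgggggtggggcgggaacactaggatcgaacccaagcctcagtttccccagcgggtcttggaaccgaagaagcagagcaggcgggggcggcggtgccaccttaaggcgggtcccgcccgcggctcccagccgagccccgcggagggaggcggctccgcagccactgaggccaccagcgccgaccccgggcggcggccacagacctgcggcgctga
Tcf7 promoter, chr11:52282965-52283264 (-): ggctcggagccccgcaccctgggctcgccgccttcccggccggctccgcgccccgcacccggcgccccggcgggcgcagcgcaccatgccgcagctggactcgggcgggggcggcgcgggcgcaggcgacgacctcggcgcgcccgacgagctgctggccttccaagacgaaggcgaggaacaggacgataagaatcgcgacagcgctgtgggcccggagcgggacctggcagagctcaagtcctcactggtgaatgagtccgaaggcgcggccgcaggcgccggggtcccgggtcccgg
Tcf7l2 internal start, chr19:55895071-55895370 (+): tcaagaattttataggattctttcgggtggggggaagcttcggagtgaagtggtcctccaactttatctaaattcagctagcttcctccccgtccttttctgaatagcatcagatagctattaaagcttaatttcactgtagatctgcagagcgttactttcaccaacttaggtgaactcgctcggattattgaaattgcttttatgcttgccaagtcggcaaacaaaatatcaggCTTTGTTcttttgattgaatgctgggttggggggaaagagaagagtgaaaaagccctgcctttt
Tcf7l2 internal anchor, chr19:55908245-55908544 (+): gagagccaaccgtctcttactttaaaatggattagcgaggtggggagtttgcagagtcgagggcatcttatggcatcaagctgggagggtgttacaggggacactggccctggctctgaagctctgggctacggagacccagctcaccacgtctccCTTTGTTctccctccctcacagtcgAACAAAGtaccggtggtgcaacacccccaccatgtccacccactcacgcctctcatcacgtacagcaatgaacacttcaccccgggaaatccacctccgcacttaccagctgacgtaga
The printed *Lef1*, *Tle2* and *Tcf7* windows held no match. Before its annotated start, the *Tcf7* window holds an ATG followed by codons without a stop. Much of this window thus reads as coding sequence. Bases further upstream of *Tcf7* were not searched, so a match in a promoter there was not tested. Of the other RefSeq starts of *Lef1*, an internal one at position 131156294 held 1 match within the same window and had no anchor within 2 kb. The middle of the *Lef1* upstream anchor held 1 match among 31 CpG dinucleotides. The window at the internal start of *Tcf7l2* held 1, and the middle of its internal anchor held 2. Over their full widths the *Lef1* upstream anchor held 2 and the *Tcf7l2* internal anchor 4, and no share over all anchors was computed at full width. Of all 32851 RefSeq promoters of this length 16.9% held a match, as did 13.5% of the middles of all 16864 anchors. A match is a run of letters and was not read as a bound site.

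The 56 loops held 128 tags (exact Poisson 95% interval 107 to 152), or 0.308% of the 41574 tags of the list. Such intervals, here and below, cover counting error of the listed tags only, since loops that missed the FDR limit are not in the list. Of 21924 protein-coding genes 45.8% had a loop, and 10.9% reached a loop score of at least 10, which 4 of these 9 genes did. With an FDR under 0.01 this number was 3, as *Tcf7l1* fell to 3 tags and *Tcf7l2* to 10, and it was 2 in the first part of the list described below and 1 in the second. *Lef1* led with 51 tags (38 to 67.1). It was followed by *Tle2* with 27 (17.8 to 39.3), *Tcf7l2* with 18 (10.7 to 28.4) and *Tcf7l1* with 12 (6.2 to 21). *Ctnnb1* had 7 tags (2.81 to 14.4), *Tle4* had 5 (1.62 to 11.7), and *Tle1* and *Tle3* had 4 each (1.09 to 10.2). *Tcf7* had no listed loop. The interval of *Lef1* lay above those of *Tcf7l2* and of every gene below it but overlapped that of *Tle2*, and no neighbors among the 8 looped genes were separated by their intervals.

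The deposited list is made of 2 runs, each sorted by position, which no source assigns to a tumor. They are called the first and the second part here. The first part held 13683 loops and 28657 tags, or 68.9% of all tags, and the second 10561 loops and 12917 tags. For the 9 genes the first part held 86 tags (67.2%, Wilson 95% interval 58.7 to 74.7) and the second 42. Individual genes departed from this split. *Lef1* had 50 tags in the first part and 1 in the second, *Tcf7l2* had 2 and 16, and *Ctnnb1* had 0 and 7. Loops of a gene in both parts were found for 7 of the 9 genes, against 24.3% of protein-coding genes, and a loop with an FDR under 0.01 for 7 of the 9, against 17.5%.

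**Figure D1:**
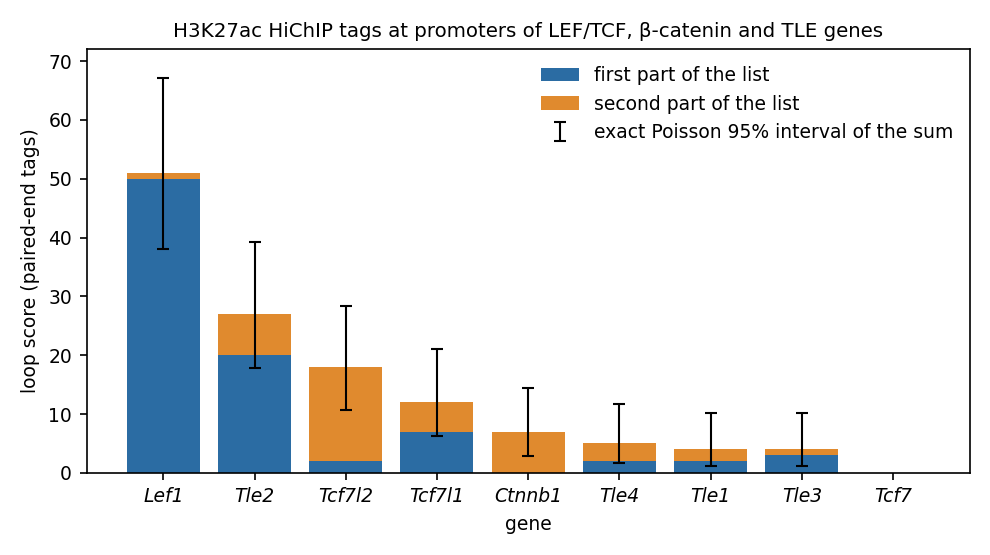
Loop score (paired-end tags, vertical axis) of each of the 9 genes, stacked by the part of the list, with the exact Poisson 95% interval of the sum. *Lef1* stood at 51 tags, almost all in the first part, *Tcf7l2* and *Ctnnb1* drew most of theirs from the second, and *Tcf7* had no listed loop and no interval.

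**Figure D2:**
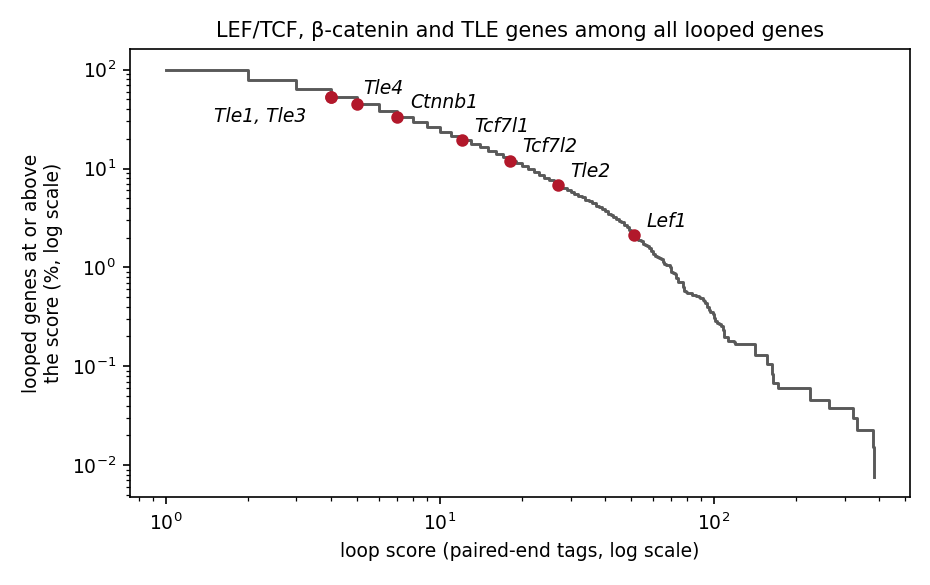
Percentage of the 13200 looped genes (vertical axis, log scale) at or above each loop score (horizontal axis, log scale), with the 8 looped genes as red points. *Lef1* ranked 265 and *Tle2* 839, whereas *Tle1* and *Tle3* sat at the median score of 4.

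*Lef1* (ENSMUSG00000027985.14, chr3:131110471-131224356, + strand), which encodes an HMG-box factor of Wnt signaling, had 9 loops, and 8 of them reached upstream. Its strongest loop held 22 tags (FDR 1.79e-07) and spanned 5.31 kb to an intergenic anchor at chr3:131104660-131107741, whose edge lay 2.73 kb from the nearest TSS, that of *Lef1* itself. This anchor therefore lay just outside the window that defines a promoter here. The next was a loop of 9 tags spanning 245.1 kb to chr3:130864247-130868580 (FDR listed as 0), at the start of the noncoding gene *Gm36520*. A loop of 7 tags spanned 165.1 kb to an intergenic anchor at chr3:130945407-130947370 (FDR 9.9e-06). A loop of 4 tags spanned 353.6 kb to the starts of *Gm43522* and *Gm43524* (FDR 1.53e-06). Loops of 2 tags each ended at *Ostc* with *Gm42998*, at *Rpl34* with *Gm42997*, at *Elovl6* with *Gm35986* and, 1980.1 kb downstream, at *Gstcd* with *Ints12*. *Ostc* encodes an oligosaccharyltransferase subunit, *Rpl34* a ribosomal protein and *Elovl6* a fatty acid elongase.

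The *Lef1* loops thus fell into a short one and a group of 5 in the first part, spanning 165.1 to 402.5 kb upstream, which held 24 tags. Without the short loop 29 tags remained. In the second part a single tag led to an intron of *Ostc* 412.1 kb away, so the strong loops of *Lef1* came from one part of the list alone and none was matched in the other. The distal anchors also met one another. The anchors at 353.6 and 165.1 kb were joined by 3 tags, and the *Ostc* promoter and the anchor at 5.31 kb by 1. Of the 73 tags of loops at these 9 distal anchors 69.9% led to *Lef1*. These anchors were taken because they loop to *Lef1*, so a share above 0 was fixed in advance. The like share was 69.2% for *Tcf7l2* and ran from 6.96% (*Tle2*) to 100% (*Tle1*) among the looped genes. *Hadh*, *Sgms2*, *Papss1*, *Casp6* and *Sec24b* were among the other partners of the *Lef1* distal anchors. No anchor lay in the *Lef1* gene body away from its promoter. The antisense noncoding gene *Gm43352* starts at the same anchors, and its loops cannot be told apart from those of *Lef1*. The same holds for *4930593C16Rik* at the *Ctnnb1* anchor, *C630043F03Rik* at *Tle1*, *Gm15917* at *Tle2* and *Gm10655* at *Tle3*.

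*Tcf7l2* (ENSMUSG00000024985.19, chr19:55741820-55933654, + strand) had the most loops, 13, and none above 2 tags. *Tcf7l2* encodes the main TCF of the intestinal epithelium. Anchors inside *Vti1a*, the upstream neighbor that encodes a SNARE protein, took 9 of the loops and 12 of the 18 tags. One of these, with 2 tags, lay near an internal TSS of *Vti1a*, and 8 lay near no TSS. The first promoter of *Tcf7l2* was joined by 2 tags over 151.7 kb to its own internal start, and by 2 tags over 164.3 kb to an exon-bearing anchor at chr19:55907660-55909129. Both places hold the motif matches printed above. The middles of the other distal anchors with 2 tags, all inside *Vti1a*, held 0. Over their full widths these *Vti1a* anchors held 2, 7 and 2 matches, and the internal start and internal anchor 2 and 4. At full width the matches thus did not set the 2 internal places apart. Loops of 1 tag led to *Adra2a*, an adrenergic receptor gene 1698.4 kb upstream, and to *Dclre1a* with *Nhlrc2* 805.5 kb downstream. Only 3 of its 13 distal anchors (23.1%, 8.18 to 50.3) lay near a TSS of another gene.

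*Tcf7l1* (ENSMUSG00000055799.13, chr6:72626378-72789254, - strand), a TCF known mostly as a repressor, differed from *Tcf7l2* in layout. All 8 of its distal anchors lay near TSSs of other genes, against 78.6% over all genes. Of its 8 loops 6 were matched in the other part of the list, 2 each at *Elmod3*, *Tgoln1* and *Rnf181*. Each of these places thus counts as 2 anchors. There were 18 other protein-coding genes within 500 kb of *Tcf7l1* and 3 within 500 kb of *Tcf7l2*, and the part of gene density was not tested. It met *Elmod3* and *Retsat*, a retinol saturase gene, by 3 tags in the first part and 1 in the second. It met *Tgoln1*, encoding a trans-Golgi protein, also by 3 and 1, and *Rnf181* by 1 and 1. These anchors lay 172.7 to 427.0 kb away, downstream, and single tags of the second part led to *Mat2a*, encoding a methionine adenosyltransferase, and to *Kcmf1*. Over all 9 genes 10 of 56 loops were matched in the other part, against 7.49% of the 23312 promoter loops, so *Tcf7l1* gave most of those matches, with *Tle2* and *Tle4* giving 2 each.

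*Tcf7* (ENSMUSG00000000782.15, chr11:52252371-52283014, - strand), which encodes the TCF of T cell development, had no loop in either part. The nearest anchor to any of its TSSs was 49.3 kb away, at *Skp1a*, which had 7 loops and 8 tags. Tags of loops that missed the FDR limit are not listed, so no upper limit is given, and the list says nothing of H3K27ac at the promoter itself.

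*Ctnnb1* (ENSMUSG00000006932.17, chr9:120929216-120960507, + strand), encoding β-catenin, had 5 loops, all in the second part. The strongest held 3 tags (FDR 5.76e-06) and spanned 331.1 kb to an intergenic anchor at chr9:120600417-120603497, which was in no other loop. The other 4 held 1 tag each and led to *Trak1* and *Higd1a* downstream, and to *Gm47062* and a further intergenic anchor upstream.

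*Tle2* (ENSMUSG00000034771.15, chr10:81574561-81590845, + strand) had 11 loops. Its strongest partner was *Aes*, named *Tle5* in RefSeq, which encodes the short Tle family member that lacks the WD repeats. They were joined by 12 tags over 14.7 kb in the first part (FDR 0.00415) and by 5 tags over 15.5 kb in the second (FDR 0.0118), together 17 of the 27 tags of *Tle2*. The other 9 loops held 10 tags, of which 2 led to *Fzr1*, a cofactor of the anaphase-promoting complex, 196.8 kb away. *Aes* itself had 31 loops and 72 tags, among them 11 tags to *Gna11* and 5 to *Tle6*, a further family member. The distal anchors of *Tle2* were shared widely, and 6.96% of the 388 tags of loops there led to *Tle2*. There were 44 other protein-coding genes within 500 kb of *Tle2*, against 0 to 18 for the other 8 genes.

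The remaining corepressor genes had few loops. *Tle4* (ENSMUSG00000024642.17, chr19:14448150-14598051, - strand) had 3, and 2 of them, 1 in each part and with 2 tags each, reached the same intergenic region near chr19:14889071-14891484 over 292.5 and 291.0 kb. That region lay 69.3 kb from its nearest TSS. The third loop, of 1 tag, reached *Psat1*, a serine synthesis gene, 1326.8 kb away. *Tle3* (ENSMUSG00000032280.16, chr9:61372366-61418497, + strand) had 3 loops, the strongest with 2 tags over 540.5 kb to *Rplp1*, a ribosomal protein gene. Its single-tag loops reached *Pkm*, encoding pyruvate kinase, and an exon-bearing anchor in *Map2k5*. *Tle1* (ENSMUSG00000008305.18, chr4:72117142-72200919, - strand) had 4 loops of 1 tag each, spanning 361.0 to 1797.3 kb, and no other listed loop used their distal anchors, of which 1 lay at *Cdk5rap2*, 1 at *Gm11228* and 2 near no TSS. There was thus no loop of *Tle1* with more than the smallest count the list can hold.

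**Figure D3:**
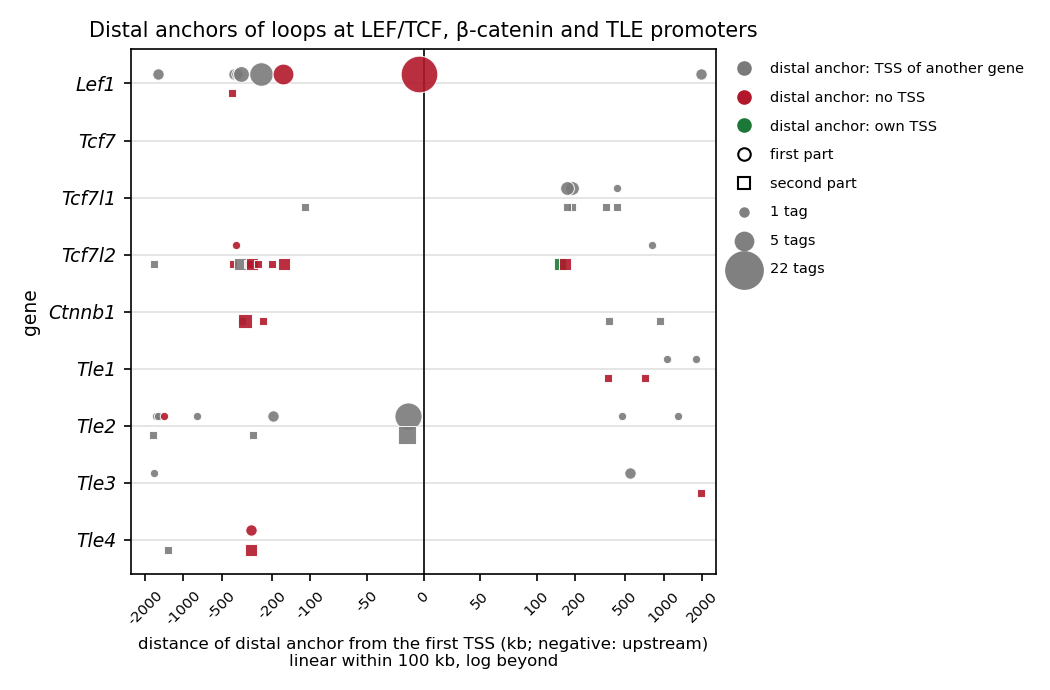
Distance of each distal anchor from the first TSS of its gene (kb, horizontal axis, linear within 100 kb and log beyond, negative upstream) for each gene (rows). Symbol area grows with tags, circles are the first part and squares the second, and colors give the anchor class. The anchor with 22 tags lay next to *Lef1*, the *Aes* anchor next to *Tle2* recurred in both parts, and the anchors without a TSS clustered upstream of *Tcf7l2*.

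Across the 9 genes 34 of 56 loops held a single tag (60.7%, 47.6 to 72.4), and of all promoter loops 77.8% did. The median span was 361.3 kb, and 505.6 kb over all promoter loops (quartiles 252.9 and 918.7). The 3 loops under 20 kb, 1 at *Lef1* and 2 at *Tle2*, held 39 tags, or 30.5% of the tags, where loops that short held 14.8% of the tags of all promoter loops. The part of short distance in these counts was not tested. Of the 56 distal anchors 35 (62.5%, 49.4 to 74) lay near a TSS of another gene, and over all genes 78.6% of 15449 did. In the first part of the list the share was 80.8% (62.1 to 91.5) against 85.3% over all genes. In the second it was 46.7% (30.2 to 63.9) against 75%, and 11 of the 30 anchors there belonged to *Tcf7l2*. Without *Tcf7l2* the share over both parts was 32 of 43 (74.4%, 59.8 to 85.1). These intervals take anchors as independent, but anchors of 1 gene lie together and places reached in both parts count as separate anchors. The intervals therefore do not test a difference from all genes. Of the 20 anchors near no TSS, 9 were intergenic, 8 intronic and 3 overlapped exons, at a median of 25.6 kb from the nearest TSS.

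Other genes of the pathway were looped as well. Over all protein-coding genes 45.8% were looped and 10.9% reached a score of 10. In the destruction complex and receptor arm, which sets the level of β-catenin, 13 of 14 genes had a loop, with a median score of 6, against 0 over all protein-coding genes. Scores of at least 10 were found at *Gsk3b* (18), *Apc* (12), *Axin1*, *Gsk3a* and *Dvl3* (10 each), and *Amer1* had none. Among nuclear cofactors 10 of 13 genes were looped, with a median of 8. *Aes* (72), the acetyltransferase genes *Ep300* (22) and *Crebbp* (16), the β-catenin adaptor gene *Bcl9* (16), *Hdac1* (14) and *Cby1* (13) reached 10. Of the *Aes* tags 17 are those of its loops to *Tle2* given above. Of 12 genes known as TCF targets in other tissues 8 were looped, with a median of 1.5, and *Twist1* (22) and *Znrf3* (12) reached 10. *Axin2* is counted both in this list and in that of the destruction complex and receptor arm. No expression was measured here, and these scores describe loops only.

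**Figure D4:**
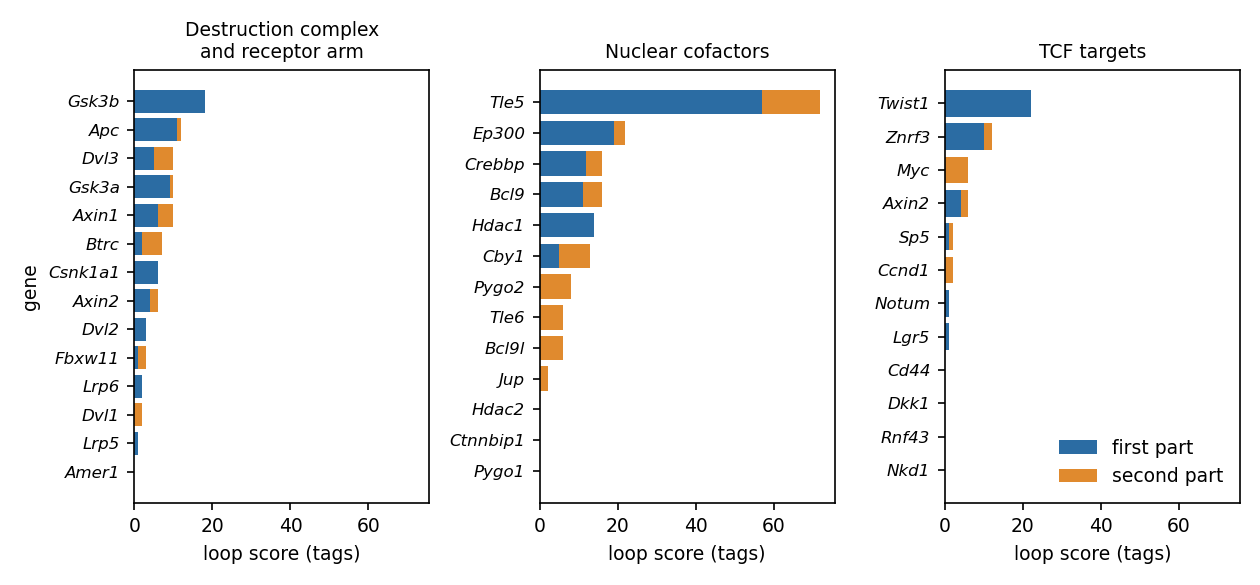
Loop scores (tags, horizontal axis) of 3 lists of pathway genes, stacked by the part of the list. *Aes*, shown by its RefSeq name *Tle5*, had the highest score at 72, with 17 of these tags in loops to *Tle2*. *Gsk3b* and *Twist1* led the other 2 lists at 18 and 22.

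Markers of the cells in the tumors were read the same way, against the same 45.8% looped over all protein-coding genes. Of 8 SyS markers 5 were looped, with *Pdgfra* at 41, *Sox2* at 39, *Tle1* at 4, *Zic1* at 2 and *Epcam* at 1. *Tle1* belongs to the 9 genes, so its loops are those already given and add nothing here. *Bcl2*, *Penk* and *Nnat* had no loop. None of 6 macrophage and none of 4 fibroblast markers had a loop, and 3 of 5 endothelial markers held 5 tags in all. The text of the study does not name *Pdgfra* as a SyS marker, and its loops were not assigned to a cell type. The part of host cells in the loops of the 9 genes and of the markers was not tested.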

How the data were processed

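H3K27ac HiChIP was performed by the authors on 2 *hSS2* tumors, with MboI digestion. Reads were mapped to mm10 with HiC-Pro and loops called with hichipper and Mango at an FDR under 0.05 in the methods and 0.01 in a legend. The deposited list holds, for each loop, a count of its paired-end tags, not normalized, and a p-value adjusted for multiple testing (FDR). By a legend the authors called loops for 2 tumors and merged them afterwards. How the loops were merged is not given in the sources used here. As counts were not scaled, a more deeply sequenced tumor would weigh more.

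TSSs were all transcript starts of GENCODE vM21. Anchors overlapping 2 kb on either side were assigned. Scores were sums of counts, and spans ran between anchor midpoints. With 1 merged list there are no replicates, and no test between groups was made. The total was 41574 tags, most loops holding 1, which limits precision. Poisson and Wilson 95% intervals were computed with Python 3.11.15, scipy 1.17.1 and statsmodels 0.14.6, and none is printed for genes without a listed loop. Assignment was tested on 200 simulated anchors, and 200 were read back correctly. Named genes were all 9 members, genes at distal anchors of loops with at least 2 tags, and pathway genes with a score of at least 10. Genes named outside this rule were chosen after their values were seen. The members and lists were chosen with earlier results of these data known. ChIP-seq samples were not used here, and 1 anchor sequence is not reported here.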

Additional observations from a re-analysis of the deposited data

How the results depend on the processing

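The counts were recomputed under 14 alternatives, of which the RefSeq TSSs and the removal of loops under 20 kb were chosen after seeing the data. A count was taken as close within 1.5 times the reported one, a share within its Wilson interval and a loop score within its Poisson interval. By these wide limits 31 of 39 values of the 3 summary results and 97 of 126 loop scores of single genes were close. Some of these were fixed in advance. *Tcf7*, at 0 under every setting and judged by the Poisson interval of a count of 0, could gain no loop by a filter. Summing the tags of loops listed more than once cannot change a loop score. These counts therefore overstate how stable the results are. The share of distal anchors near another TSS, 62.5%, still fell to 50% with RefSeq TSSs and 51.8% with protein-coding transcripts only, and was 67.2% with a window of 5 kb, where *Lef1* had 54 tags and the 9 genes together 131. It was 80.8% in the first part of the list and 46.7% in the second. The share over all genes was not recomputed with the other TSS sets or windows, so no gap from all genes is given there. Stricter loops cut the tags from 128 to 84 at an FDR under 0.01, 55 at an FDR under 0.001 and 59 at 4 or more tags. The looped genes fell from 8 to 4 at an FDR under 0.001 and to 2 (*Lef1* and *Tle2*) at 4 or more tags. The second part alone held 42 tags and left *Lef1* at 1, so its first place rests on the first part. Without loops under 20 kb *Lef1* fell to 29 tags and *Tle2* to 10. The causes of these shifts were not tested. No paired analysis was possible because the merged list has no column per tumor.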
